A study of Mus musculus with 4 samples.

Results

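The genes described here are 8 genes of the osteoclast lineage: Tnfrsf11a, Oscar, Nfatc1, Dcstamp, Acp5, Clcn7, Car2 and Calcr. They were taken by name, with earlier results of these data known. Every non-control probe carrying any of these names was taken (Dcstamp carries its older symbol Tm7sf4 on the array). This gave 11 probes, with 2 probes each for Tnfrsf11a, Nfatc1 and Calcr, out of 41174 probes for 19842 named genes. Both probes of Calcr were dim on all arrays, which left 9 probes of 7 genes well above background on each of the 4 arrays.

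Gene expression was measured in 4 cultures labelled as dendritic cells (DCs, the cells that present antigen to T cells). They were grown from the bone marrow of BALB/c mice, with 1 one-colour Agilent array per culture. The 4 populations are, in the order used here, the antibody-treated sDCs, the sDCs, the mature DCs (maDCs) and the immature DCs (imDCs). The antibody-treated sDCs were made like the sDCs, but IL-10 was neutralized in the coculture by an antibody, given at 10 µg/mL at intervals of 2 days. For the sDCs, marrow progenitors freed of lineage-positive cells were placed on Sca-1+CD117-Lin- mesenchymal stem cells, given lipopolysaccharide (LPS, a bacterial product that matures DCs) on day 4 and taken on day 9. The maDCs were imDCs exposed to LPS (10 ng/mL) over another 4 to 5 days. GM-CSF at 10 ng/mL and IL-4 at 5 ng/mL are listed for the maDCs as well as for the imDCs. The imDCs came from marrow cells grown with GM-CSF at 10 ng/mL and IL-4 at 5 ng/mL, whose loosely attached clusters were taken on day 4 and selected for CD11c on magnetic beads. No recombinant RANK ligand or CSF-1 is listed for any culture, and none of GM-CSF or IL-4 is listed for the sDC cultures. The sources used here do not give the step that parted sDCs from the stroma.

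Osteoclasts are the bone-resorbing cells, which arise from myeloid precursors that can also give rise to macrophages and DCs. CSF-1 keeps the precursors alive, and RANK ligand acts through its receptor RANK, together with ITAM-coupled receptors such as OSCAR, to induce the transcription factor NFATc1. NFATc1 then drives genes of cell fusion (Dcstamp), of acid and enzyme secretion at the bone surface (Car2, Clcn7, Acp5) and of hormone response (Calcr). Most of these genes are also used outside bone: RANK and DC-STAMP in DCs, and carbonic anhydrase 2 in several blood and epithelial cells.

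The 4 arrays each held 43379 non-control spots, of which 61.2 to 69.7% were well above background and 0 were saturated. Probes spotted 10 times on an array had a median SD between spots of 0.047 to 0.059 log2 units, which covers spotting and scanning and not culture, RNA or labelling. With 1 array per population there is no replicate check, so no p-value is given, and a gene is counted as different from 2-fold upwards (1 log2 unit). Levels are given as scaled intensity, on which the 75th percentile of an array's spots is 1000, and they compare arrays for 1 probe, not 1 probe with another. The scanner software's own error was 10.0 to 13.7% of the intensity for the 9 probes above background. The other 3 arrays shared a slide and a scan that the imDC array did not, so slide and population cannot be told apart in any comparison with imDCs. In bulk samples such as these, fewer cells of a type and less RNA per cell cannot be told apart.

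The labelled cell types were set against marker lists, because several of them moved with the results below. All 12 DC markers, which include the CD11c gene Itgax and the MHC class II genes H2-Aa, H2-Eb1 and Cd74, were at least 2-fold lower in sDCs than in imDCs, with a median difference of -4.63, and 2 of them, Irf4 and Cd209a, were not well above background on the sDC array. The macrophage and monocyte list ran the other way, with 11 of 12 genes higher in sDCs than in imDCs and a median of 3.63. Its summed scaled intensity was 575784 in sDCs and 147763 in imDCs. Ly6c2, the gene of that list that was lower, stood at 9508 in sDCs and 90324 in imDCs. The other 11 summed to 566276 in sDCs and 57438.5 in imDCs. The list of stromal genes also had 11 of 12 higher in sDCs than in imDCs, with a median of 7.37. Thy1, the gene that was lower, stood at 26278 in sDCs and 106952 in imDCs, and the other 11 summed to 162354 in sDCs and 914 in imDCs, where Col3a1, Lum and Pdgfra were not well above background. Mast cell and basophil genes were higher in maDCs than in imDCs in 8 of 8, with a median of 3.11, while 7 of 8 were lower in sDCs than in imDCs. Of 8 osteoblast genes, Alpl, Ibsp, Dmp1 and Phex were not well above background on any of the 4 arrays, while Runx2, Bglap and Sost were above it on all 4. Of the erythroid genes, Epb42 and Ermap were not well above background on any array, while Hba-a1, Slc4a1 and Car1 were above it on all 4.

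3 promoters and 1 probe are shown, for Acp5, Clcn7 and Oscar, the members among those searched whose 250 bases before a RefSeq transcript start held a hexamer of the kind that MITF and its relatives bind (CACGTG or CATGTG, read on both strands). In each promoter capitals mark that hexamer, which on the printed strand reads CACATG in Acp5 and Oscar and CACGTG in Clcn7. The Acp5 window is chr9:22130599-22130848 on the minus strand, the Clcn7 window chr17:25133141-25133390 on the plus strand and the Oscar window chr7:3616158-3616407 on the minus strand, all in GRCm38.p6 and all written 5′ to 3′.
Acp5: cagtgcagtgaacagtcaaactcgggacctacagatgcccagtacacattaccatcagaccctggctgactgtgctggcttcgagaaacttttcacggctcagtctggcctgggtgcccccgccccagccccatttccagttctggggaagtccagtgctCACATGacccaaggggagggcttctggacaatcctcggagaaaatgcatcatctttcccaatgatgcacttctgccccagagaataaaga
Clcn7: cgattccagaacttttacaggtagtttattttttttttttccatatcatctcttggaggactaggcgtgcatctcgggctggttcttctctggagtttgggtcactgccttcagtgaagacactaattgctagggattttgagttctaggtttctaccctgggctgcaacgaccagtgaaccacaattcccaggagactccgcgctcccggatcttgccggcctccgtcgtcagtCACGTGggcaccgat
Oscar: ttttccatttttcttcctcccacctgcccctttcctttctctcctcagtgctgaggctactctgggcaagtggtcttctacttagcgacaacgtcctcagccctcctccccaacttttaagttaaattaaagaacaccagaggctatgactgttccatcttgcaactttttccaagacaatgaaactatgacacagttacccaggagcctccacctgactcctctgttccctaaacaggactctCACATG
The hexamer begins 90 bases before the transcript start in Acp5, 15 bases before it in Clcn7 and 6 bases before it in Oscar. In all 9 RefSeq promoter entries of 5 of the 8 genes were searched, and 4 entries carried either hexamer, the fourth being a second Clcn7 start. Nfatc1, Dcstamp and Car2 had no promoter entry, so whether they hold the hexamer is not known here. Of all 32851 promoters of this length, 6.02% held CACGTG, 12.3% held CATGTG and 17.6% held either. A match of letters is a description of the window and not a binding site. Mitf itself, which encodes MITF, a factor of osteoclasts, melanocytes and mast cells, was higher by 1.51 in sDCs than in imDCs and by 1.07 in maDCs than in imDCs. The differences of the 3 genes did not follow a shared order across the arrays, as the values below show. The 1 probe printed is that of Acp5, the member with the largest difference between maDCs and imDCs, and it lies in the coding part of the gene.
Acp5 probe: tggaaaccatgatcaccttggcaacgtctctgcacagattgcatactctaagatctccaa

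The 8 genes fell into 3 patterns over the 4 arrays, as the plot of all 11 probes shows. Car2 and Dcstamp were bright in maDCs and imDCs and far lower, though well above background, in both sDC cultures. Acp5 was high in maDCs alone among the 4 arrays. Tnfrsf11a, Oscar, Nfatc1 and Clcn7 were measured everywhere and spanned at most 3.12-fold between their highest and lowest array, while Calcr was measured nowhere.

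**Figure D1:**
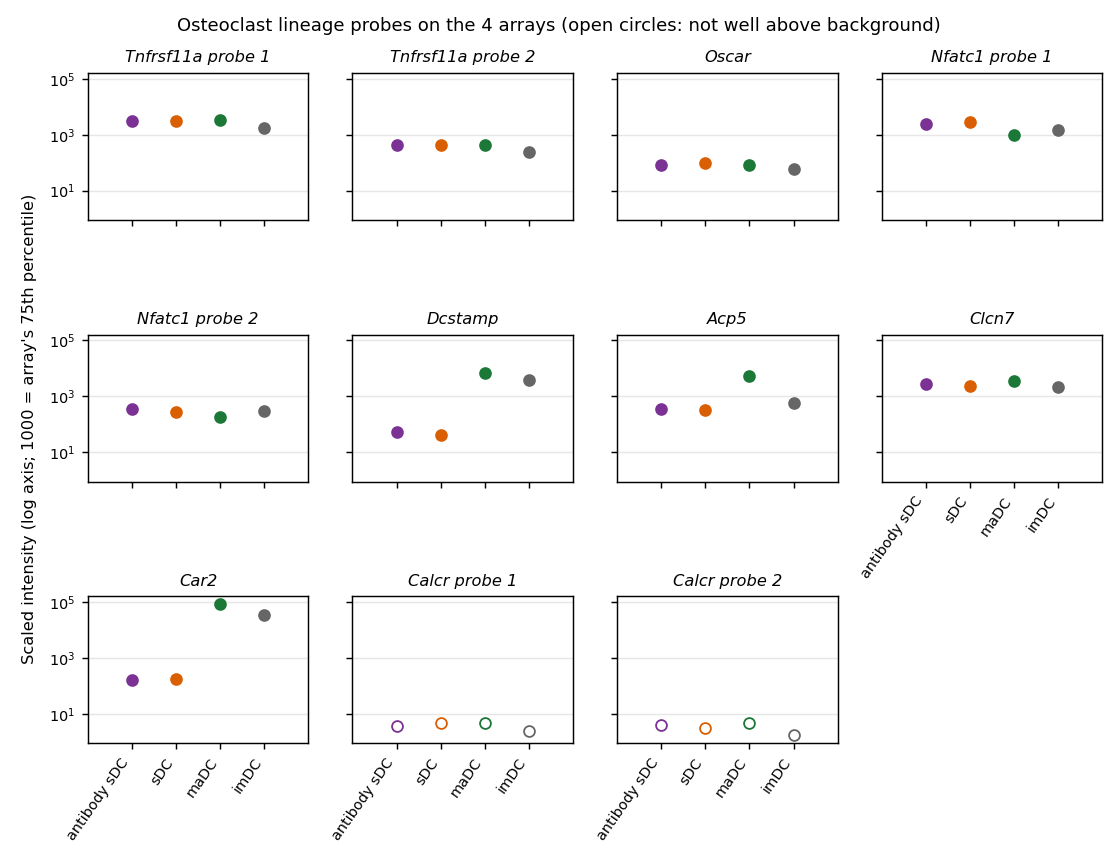
Scaled intensity (log axis, 1000 is the 75th percentile of an array) of the 11 probes of the 8 genes on the antibody sDC, sDC, maDC and imDC arrays. Each point is 1 array, filled where the probe was well above background, with the software's error drawn where it exceeds the point. Car2 stands at 162 and 170.4 in the antibody sDCs and sDCs, against 83545 in maDCs and 33148 in imDCs, and the open Calcr points lie at the bottom on all arrays.

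Among the receptors, Tnfrsf11a encodes RANK, the receptor for RANK ligand, which gives survival signals to DCs as well as driving osteoclast formation. Its first probe (mm9 chromosome 1, 107743752 to 107743811) stood at 3216 in the antibody-treated sDCs, 3164 in sDCs, 3249 in maDCs and 1745 in imDCs. Its second probe (chromosome 1, 107741397 to 107741456) stood at 414, 445, 435 and 234 on the same arrays. By both probes the imDC array was the lowest and the other 3 lay close together.
The first probe was higher by 0.90 in maDCs than in imDCs (1.86-fold) and by 0.86 in sDCs than in imDCs (1.81-fold). The second probe gave 0.89 and 0.93 in the same comparisons, so RANK mRNA lay just within 2-fold by both probes. When arrays were scaled on the median spot, the first probe gave 0.51 and 0.47 there, and the second 0.50 and 0.53. Between sDCs and maDCs the probes differed by -0.04 and 0.03, which is inside the spread of repeated spots.

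Oscar encodes the osteoclast-associated receptor, a collagen-binding receptor that signals through the adaptor FcRγ. Its probe (chromosome 7, 3562135 to 3562194) gave 84.5 in the antibody-treated sDCs, 98.5 in sDCs, 85.3 in maDCs and 61.1 in imDCs. Its raw intensities of 112 to 129 compare with 12.8 to 34.3 for the lowest spots counted as above background. The differences were 0.69 between sDCs and imDCs, 0.48 between maDCs and imDCs and 0.21 between sDCs and maDCs, all within 2-fold. When arrays were scaled on the median spot, the difference between maDCs and imDCs was 0.09.

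Nfatc1 encodes the transcription factor that osteoclast formation turns on, and its 2 probes are described in the files as those of different transcript variants. Whether each probe detects only the variant it is named for was not checked, so the variant names below are labels of probes. The probe of transcript variant 2 (chromosome 18, 80803664 to 80803723) gave 2429 in the antibody-treated sDCs, 2947 in sDCs, 945 in maDCs and 1476 in imDCs. The probe of transcript variant 1 (chromosome 18, 80845439 to 80845498) gave 342, 282, 189 and 299 on the same arrays. Both probes were lowest in maDCs, by -0.64 and -0.67 against imDCs, and they parted company in the sDCs.
The variant 2 probe was higher by 1.64 in sDCs than in maDCs (3.12-fold), where the variant 1 probe was higher by 0.58 (1.49-fold). Against imDCs the variant 2 probe was higher by 0.997 in sDCs, just short of 2-fold, and passed it at 1.04 in the authors' deposited values, while the variant 1 probe differed by -0.09. The 2 probes thus differed from each other by 1.08 log2 units in the comparison of sDCs with imDCs and by 1.06 in that of sDCs with maDCs, against 0.02 in that of maDCs with imDCs. Scaled on the median spot, both probes passed 2-fold lower in maDCs than in imDCs, at -1.03 and -1.06.

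Dcstamp encodes DC-STAMP, a membrane protein needed for the fusion of osteoclast precursors that was first found in DCs. Its probe (chromosome 15, 39592046 to 39592105) gave 51.2 in the antibody-treated sDCs and 40.0 in sDCs, against 6939 in maDCs and 4011 in imDCs. Both sDC arrays lay far below the other pair. The difference was -6.65 between sDCs and imDCs (100.4-fold lower in sDCs) and -7.44 between sDCs and maDCs (174-fold lower in sDCs), whereas maDCs exceeded imDCs by 0.79. These stood at percentiles 0.212 and 0.129 among all probes with a value in those comparisons. The normexp background, which adds an offset and so compresses dim values, reduced them to -5.34 and -6.25.

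Acp5 encodes tartrate-resistant acid phosphatase, the enzyme stained to identify osteoclasts, which is also made by some macrophages and DCs. Its probe (chromosome 9, 21933981 to 21934040) gave 362 in the antibody-treated sDCs, 318 in sDCs, 5571 in maDCs and 573 in imDCs. The maDC array stood far above the other 3, which lay within 2-fold of each other. Acp5 was higher by 3.28 in maDCs than in imDCs (9.72-fold), at percentile 98.2 of all probes with a value, and lower by 4.13 log2 units in sDCs than in maDCs (17.5-fold). Between sDCs and imDCs the difference was -0.85, and it passed 2-fold, at -1.24, only under scaling on the median spot among the 4 other scalings tried.

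Clcn7 encodes a chloride-proton exchanger of lysosomes and of the osteoclast's ruffled border, where it balances the charge moved by the proton pump. Its probe (chromosome 17, 25298348 to 25298407) gave 2658 in the antibody-treated sDCs, 2327 in sDCs, 3684 in maDCs and 2246 in imDCs. It spanned 1.64-fold in all, the maDC array being the highest. The differences were 0.71 between maDCs and imDCs, 0.05 between sDCs and imDCs and -0.66 between sDCs and maDCs. The small value between sDCs and imDCs changed sign with scaling, to -0.34 on the median spot and -0.03 after normexp.

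Car2 encodes carbonic anhydrase 2, the cytosolic enzyme that makes the protons osteoclasts secrete. Its probe (chromosome 3, 14900206 to 14900265) gave 162 in the antibody-treated sDCs and 170.4 in sDCs, against 83545 in maDCs and 33148 in imDCs. No member spanned more: the maDC array exceeded the antibody-treated sDC array 516-fold. The difference was -7.60 between sDCs and imDCs (195-fold lower in sDCs, percentile 0.106) and -8.94 between sDCs and maDCs (490.2-fold lower in sDCs, percentile 0.0406). Between maDCs and imDCs Car2 was higher by 1.33 (2.52-fold), and this fell short of 2-fold, at 0.94, when arrays were scaled on the median spot.

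Calcr encodes the calcitonin receptor, through which calcitonin stops bone resorption. Its first probe (chromosome 6, 3650150 to 3650209) had raw intensities of 4.96 in the antibody-treated sDCs, 6.17 in sDCs, 6.93 in maDCs and 4.70 in imDCs. Its second probe (chromosome 6, 3635940 to 3635999) had 5.16, 4.16, 7.03 and 3.60 on the same arrays. The lowest spots counted as above background there were 24.4, 19.9, 34.3 and 12.8, so Calcr was not well above background in any culture and no fold is given.

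The first comparison, of maDCs with imDCs, asks what LPS and 4 to 5 more days of culture go with in imDCs. Acp5 and Car2 were at least 2-fold higher in maDCs, 0 members were lower, 5 lay within 2-fold and 1, Calcr, had no value. Of all genes with a value 32.3% differed by 2-fold in either direction, 21.6% being higher and 10.7% lower, so 2 of 7 is close to what genes at large showed. By probe 2 of 9 were higher and 0 lower, over a background of 31.4% (20.3% higher and 11.1% lower). The median of the 7 was 0.79, against 0.18 over all genes. The shift of all genes depends on the scaling, being 0.02 after quantile normalization and -0.20 on the median spot. Mast cell and basophil genes moved the same way as Car2 and Acp5: the 8 genes summed to a scaled intensity of 89394 in maDCs and 9195 in imDCs, with Cpa3, a mast cell protease gene, higher by 3.54. Macrophage and monocyte genes were higher in maDCs in 9 of 12 (6 of 12 after quantile normalization, in the deposited values and on the median spot), with a median of 1.40. Their sums were 337502 in maDCs and 147763 in imDCs. Ly6c2 of that list was lower, at 38346 in maDCs and 90324 in imDCs, and the other 11 summed to 299156 and 57438.5. Neutrophil genes were lower in maDCs in 7 of 8, with a median of -4.81. Their part in these differences was not tested.

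In the comparison of sDCs with imDCs, Dcstamp and Car2 were at least 2-fold lower in sDCs, 0 members were higher by 2-fold, and the other 5 with a value lay within 2-fold. Of all genes 41.5% differed by 2-fold, 25.4% being higher and 16.1% lower. By probe 0 of 9 were higher and 2 lower, over a background of 42.5% (26.6% higher and 16% lower). The median of the members was 0.05, against 0.21 over all genes. The DC markers moved the same way as Dcstamp and Car2, their 12 genes summing to 9737 in sDCs and 314136 in imDCs, and stromal markers moved the other way. Neutrophil genes also stood apart, with 7 of 8 lower in sDCs than in imDCs and Ltf, the lactoferrin gene, at -8.63. The part of these markers in the members' differences was not tested.

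Between sDCs and maDCs, whose arrays shared a slide, Nfatc1 was at least 2-fold higher in sDCs by its brighter probe. That was the variant 2 probe, at 1.64, while the variant 1 probe lay within 2-fold at 0.58. Dcstamp, Acp5 and Car2 were at least 2-fold lower in sDCs, while Tnfrsf11a, Oscar and Clcn7 lay within 2-fold. Of all genes 31% differed by 2-fold, 14.2% being higher and 16.8% lower. By probe 1 of 9 was higher and 3 lower, over a background of 30.8% (15.2% higher and 15.7% lower). The median of the members was -0.66, against 0.03 over all genes. Mast cell genes were lower in sDCs in 7 of 8, with a median of -6.36 and sums of 551 in sDCs and 89394 in maDCs, and 11 of 12 DC markers were lower too, the remaining one (Cd209a) being dim on both arrays. Stromal genes were higher in sDCs in 11 of 12, with a median of 5.90 and 1 lower. Macrophage and monocyte genes were higher in 9 of 12, with a median of 2.29 and 1 lower. The part of these lists was again not tested.

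**Figure D2:**
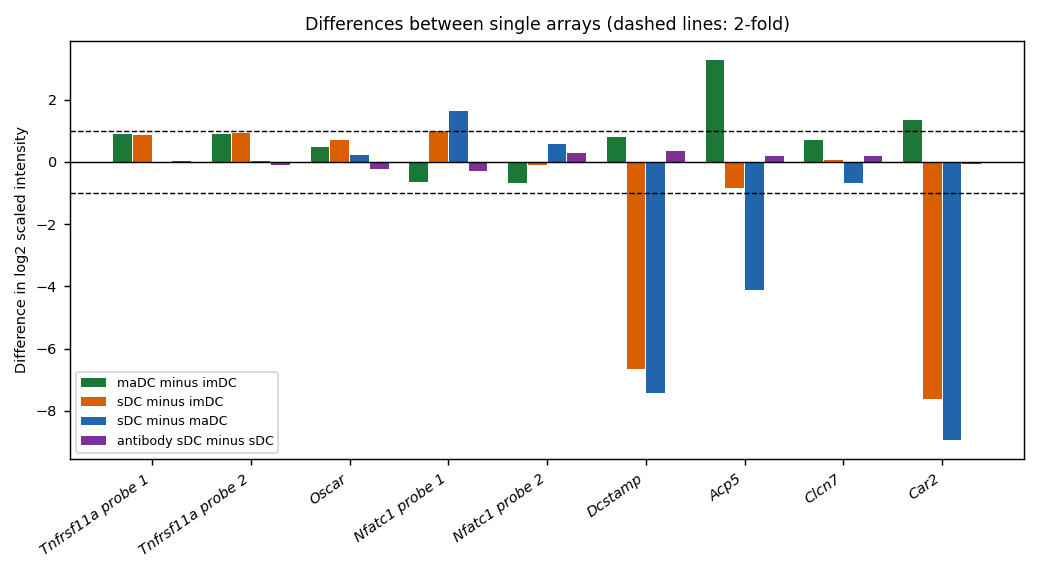
Differences in log2 scaled intensity between single arrays for the 9 probes with a value, by comparison, with dashed lines at 2-fold. The longest bars are those of Car2 and Dcstamp below 0 in both comparisons of sDCs, from -6.65 to -8.94, and the antibody bars all stay between -0.28 and 0.36.

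**Figure D3:**
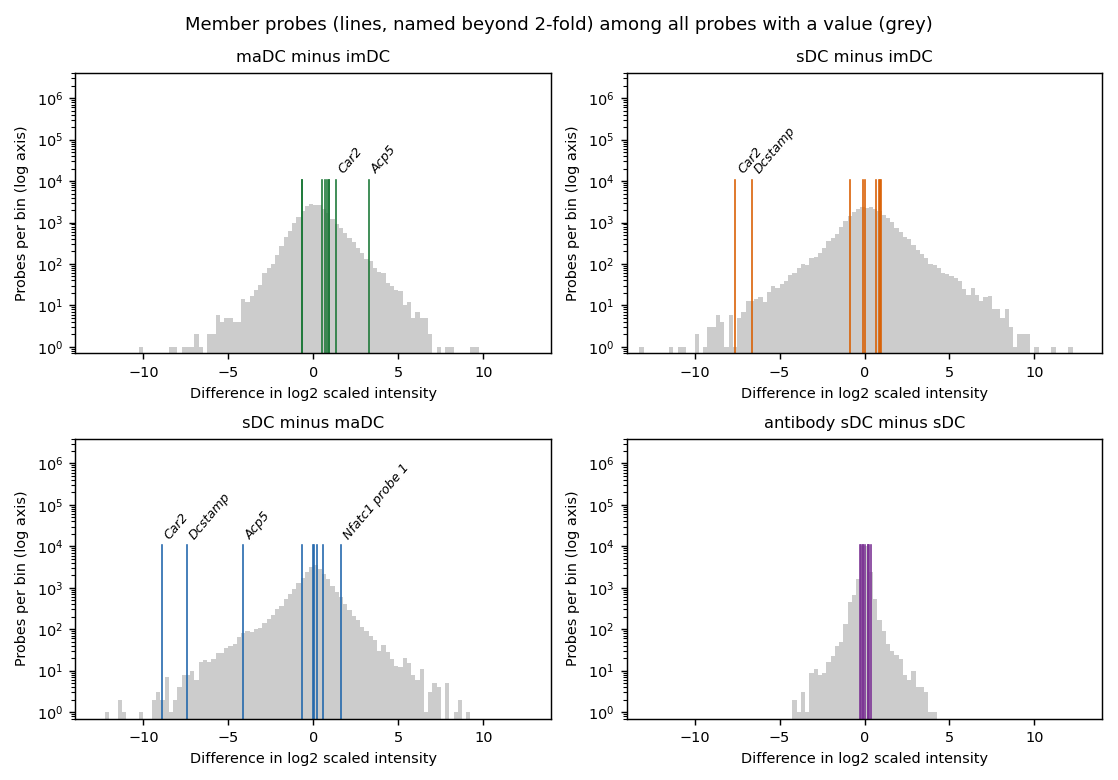
Histograms of the log2 difference of all probes with a value (log count axis, grey) in the 4 comparisons, with a line at each member probe and names beyond 2-fold. Most member lines stand inside the bulk of the probes, while those of Dcstamp and Car2 stand in the far lower tail of both comparisons of sDCs.

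The comparison of antibody-treated sDCs with sDCs asks what neutralizing IL-10 changes in the stromal culture. None of the 7 members with a value reached 2-fold (0 higher and 0 lower), and of all genes 2.12% did (0.861% higher and 1.26% lower). None of the 9 probes did either (0 higher and 0 lower), over a background of 2.06% (0.918% higher and 1.14% lower). The differences were 0.36 for Dcstamp, 0.19 for Acp5, 0.19 for Clcn7, -0.08 for Car2 and -0.22 for Oscar. The probes of Tnfrsf11a gave 0.02 and -0.10 and those of Nfatc1 gave -0.28 (variant 2) and 0.28 (variant 1), opposite in sign. The value of Dcstamp rests on a dim spot, with a software error of 13.7% in the antibody-treated sDCs and 13.5% in sDCs, and it was 0.15 after normexp. With 1 array each, a difference of this size has no replicate to be set against. Neutrophil genes were higher in the antibody-treated sDCs in 5 of 8 (3 of 8 after normexp), and stromal genes had a median of -0.88, and their part was not tested.

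The other genes of the pathway were taken from lists by role. On the ligand side, Tnfsf11, which encodes RANK ligand, was higher by 3.96 in maDCs than in imDCs and by 1.72 in sDCs than in imDCs. It was a dim gene, at 28.0 in the antibody-treated sDCs, 39.9 in sDCs, 188 in maDCs and 12.1 in imDCs. A second probe gave 3.84 and 1.85 in the same comparisons, and it gave -1.06 between antibody-treated sDCs and sDCs where the first gave -0.51. Tnfrsf11b encodes osteoprotegerin, the decoy that captures RANK ligand, and it stood at 134 in the antibody-treated sDCs, 204 in sDCs, 4674 in maDCs and 758 in imDCs. Osteoprotegerin mRNA was thus lower by 4.52 log2 units in sDCs than in maDCs. It was higher by 2.62 in maDCs than in imDCs, and -1.89 in sDCs against imDCs.
Of the 11 genes of RANK ligand, its decoy and NF-κB signalling, 5 were higher and 0 lower in maDCs than in imDCs, with a median of 0.82. Against imDCs the sDCs had 2 higher and 4 lower, and against maDCs 1 higher and 6 lower. The NF-κB gene Nfkb1 was at 1.32 in maDCs and -1.10 in sDCs against imDCs, though 3 other probes gave -0.63 to 0.45 in sDCs. In the antibody comparison 1 of 11 passed, the adaptor gene Gab2 at -1.38, which was 30.5 in antibody-treated sDCs and 79.5 in sDCs. After normexp 0 of 11 passed.

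Csf1r, the receptor for CSF-1, stood higher by 2.88 in sDCs than in imDCs and by 1.13 in maDCs than in imDCs (3 probes gave 2.29 to 2.99 and 0.13 to 1.38). Its ligand gene Csf1 was higher by 2.03 in maDCs than in imDCs and lower by 2.15 log2 units in sDCs than in maDCs. The ITAM list holds ITAM adaptors, their receptors and their kinases, not only those of OSCAR. In it 1 of 7 measured genes passed 2-fold between sDCs and imDCs and 6 lay within it. That gene was Trem2, a lipid-sensing receptor of osteoclasts and macrophages, at 4.18 between sDCs and imDCs and 2.32 between maDCs and imDCs. Fcer1g, the FcRγ adaptor of OSCAR, was at 0.91 and 1.01 in the same comparisons. Siglec15, the remaining gene of that list, had no named probe.

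Of 11 transcription factors that favour osteoclast formation, 6 were higher and 1 lower both in sDCs and in maDCs against imDCs, with medians of 1.22 and 1.06. Fosl2 was higher by 3.11 and Jun by 2.44 in sDCs than in imDCs. Prdm1, which encodes Blimp-1, a repressor of the genes that restrain osteoclasts, was higher by 2.66 in maDCs than in imDCs and lower by 2.10 log2 units in sDCs than in maDCs. Fos and Jun also belong to the immediate early genes that cell handling induces, and of 10 heat shock and immediate early genes 5 were higher in sDCs and 7 in maDCs than in imDCs, which was not tested as a source.
The 7 regulators that restrain osteoclast formation had 6 higher in sDCs than in imDCs and 0 lower, with a median of 1.65. Irf8 was among the 6 by its brighter probe, at 1.65, while its other probe lay within 2-fold at 0.85. The repressor gene Bcl6 was higher in sDCs by 3.28 against imDCs and by 2.25 against maDCs. Id3 was higher by 2.99 in sDCs than in maDCs. In maDCs 5 of the 7 were higher and 2 lower than in imDCs, Irf8 leading at 2.50.

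Among the other NFAT genes and Rcan1, 2 of 5 were higher in sDCs than in imDCs, Nfatc4 at 2.44 and Nfatc2 at 2.04. Other probes of Nfatc2 gave 0.55 and -0.49 there, and 1 was dim on all arrays compared, so its direction depends on the probe. Rcan1, a calcineurin regulator that NFAT induces, was at 0.86 in sDCs and 0.95 in maDCs against imDCs. Its other probe gave 0.08 and -0.06.

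Other genes of cell fusion did not share 1 direction. Ocstamp, which encodes OC-STAMP, the closest relative of DC-STAMP, was lower in sDCs at -3.20 against imDCs and -2.20 against maDCs, and at -6.64 and -5.56 by its other probe. Unlike Dcstamp it was also lower in maDCs than in imDCs, by both probes (-1.08 by the other one). Atp6v0d2, a proton pump subunit used in fusion, stood at -2.65 in sDCs against imDCs and -3.99 against maDCs. In contrast Adam8 was higher in sDCs by 2.79 than in imDCs, and the tetraspanin gene Cd81 by 2.10. Of the 8 genes, 4 were higher and 2 were lower in sDCs when set against imDCs.

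The list of acid secretion genes leaves out Car2 and the pump subunit gene Atp6v0d2, both given elsewhere. By their brightest probe all 13 listed genes, which include the pump subunit Tcirg1 and the CLC-7 partner Ostm1, lay within 2-fold in all 4 comparisons, with medians of 0.09 between sDCs and imDCs and -0.01 between maDCs and imDCs. A second probe of Snx10, a gene of vesicle trafficking, was past it at 1.35 between sDCs and imDCs. When arrays were scaled on the median spot, 3 of 13 passed 2-fold lower in sDCs than in imDCs and 1 of 13 in maDCs than in imDCs. Tcirg1 was at 0.60 in sDCs and 0.63 in maDCs against imDCs, and Ostm1 at 0.59 and -0.01. In the CLC family, Clcn2 was higher by 1.67 in sDCs than in imDCs, as was Clcn3 (1.40), and 4 of 6 were within 2-fold.

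Genes of attachment and matrix degradation were mostly higher in sDCs, with 8 of 9 higher than in imDCs and a median of 2.10. The remaining gene, Itgb3, was lower by its brighter probe (-2.40) and higher by its other probe (2.67), so no direction is given for it. Ctsk, which encodes cathepsin K, the collagenase of osteoclasts and of some fibroblasts, was at 3359 in the antibody-treated sDCs, 3218 in sDCs, 1355 in maDCs and 613 in imDCs. It thus ran opposite to Car2 and Dcstamp, being higher by 2.39 in sDCs than in imDCs. Mmp9 was higher by 3.63 and Mmp14 by 5.34 in sDCs than in imDCs. The stromal markers named above were higher on the same array, and their part was not tested.
In maDCs 7 of the 9 were higher than in imDCs, among them Src, an osteoclast kinase, at 3.57 (2.00 by another probe).

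**Figure D4:**
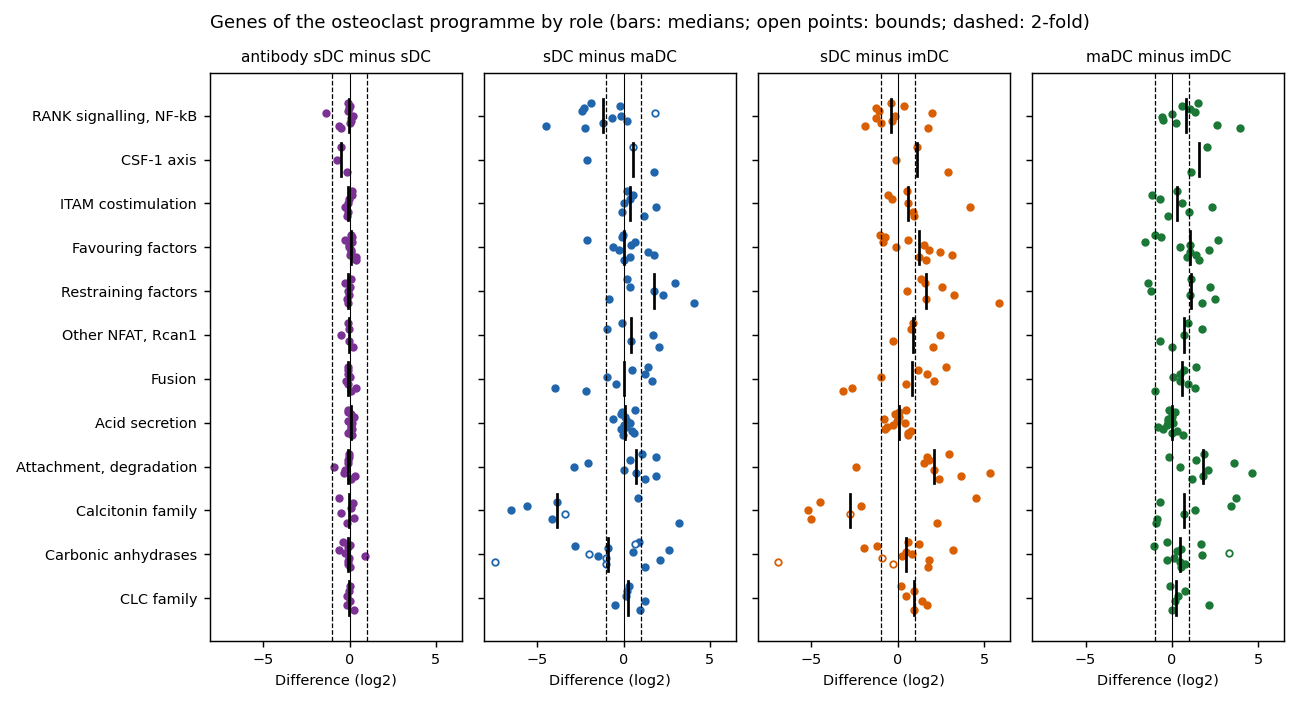
Difference in log2 scaled intensity of each listed gene (point; open points are bounds) by role, with the list median as a bar and dashed lines at 2-fold, for the 4 comparisons. The 13 acid secretion genes stay within 2-fold in all panels, while the calcitonin family reaches from -5.18 to 4.52 between sDCs and imDCs.

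Other carbonic anhydrase genes ran in both directions. Of 14, 13 had a value between sDCs and maDCs, 3 of them higher and 6 lower in sDCs, the 6 including 2 bounds close to 2-fold (Car3 and Car6), and after normexp 3 were higher and 3 lower. Between sDCs and imDCs 4 were higher and 3 lower. Car4, a membrane-anchored enzyme, was not well above background in sDCs and at least 125-fold lower there than in imDCs. Car13, another cytosolic form, was at 1.66 in maDCs against imDCs and -1.18 in sDCs against imDCs, the same signs as Car2. Car11, in the other direction, was higher by 3.17 in sDCs than in imDCs, and Car5b by 1.82.

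Although Calcr was not measurable, its relatives were. Ramp3 and Ramp1 encode partners that turn the calcitonin receptor into an amylin receptor. Ramp3 stood at 248 in antibody-treated sDCs, 350.2 in sDCs, 32165 in maDCs and 12658 in imDCs. It was thus far lower in both sDC cultures, by -5.18 between sDCs and imDCs. Ramp1 was at -5.05 between sDCs and imDCs, and its other, dimmer probe gave only a bound of -0.85. Calcrl, the receptor for adrenomedullin and for the calcitonin gene-related peptide, ran the other way at 2.29, though its other probe gave 0.29. Adm, which encodes adrenomedullin, was higher by 4.52 in sDCs and by 3.70 in maDCs than in imDCs. Calca, the gene of calcitonin and its related peptide, was at 2054 in maDCs and 189.7 in imDCs, a difference of 3.44. It was at 44.6 in the antibody-treated sDCs and 42.6 in sDCs, and between sDCs and imDCs its probes disagreed in sign (-2.16 and 1.38). Against imDCs, 5 of these 7 genes were lower in sDCs and 2 were higher.

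Genes with the most similar values over the 4 arrays were found for each measured member by the root mean square (rms) of the differences after centring each gene on its own mean, among 12950 genes. Closest to Dcstamp were Cish (rms 0.27) and Socs2 (0.38), both cytokine-induced inhibitors of STAT5 signalling. Closest to Car2 were AY761185 (0.27) and Scin (0.33), where Scin encodes the actin-severing protein scinderin. No gene lay within an rms of 0.2 of either (0 for each), against 6 for Acp5, 171 for Nfatc1, 920 for Clcn7, 1204 for Tnfrsf11a and 1742 for Oscar. Acp5 was nearest to Apol7c (0.07), and Nfatc1 to Fam78a (0.05) and Lair1 (0.06). The nearest genes of Tnfrsf11a were Npc1 and Ighm, those of Oscar Krt84 and Ndufb4, and those of Clcn7 Akr1a1 and Cir1. Genes were centred but not scaled to a common spread. With 4 arrays this measure therefore orders genes by the size of their differences as well as by shape. The range over the arrays was 9.01 log2 units for Car2 and 7.44 for Dcstamp, against 0.69 for Oscar. The counts of close genes thus do not compare shapes alone.

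**Figure D5:**
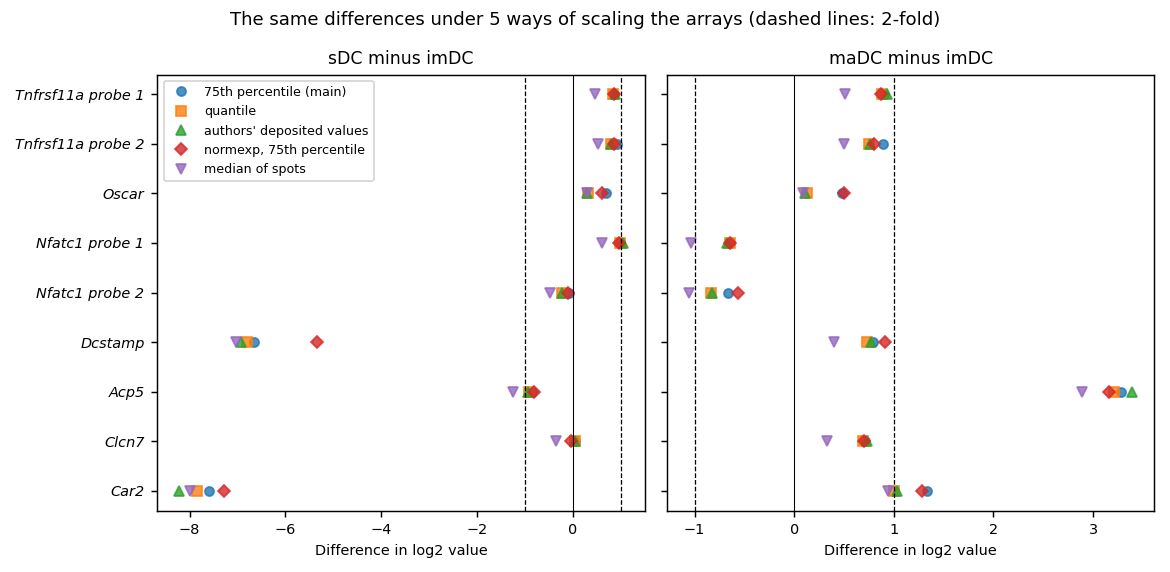
Log2 differences of the 9 measured probes against imDCs under 5 ways of scaling or background correction, with dashed lines at 2-fold. Car2 and Dcstamp stay far below the lower line in sDCs under all 5, while Car2 in maDCs moves across the upper line, from 1.33 to 0.94.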

How the data were processed

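RNA of 4 cultures was hybridised to 1 one-colour array each. Per the file headers, the deposited intensity values are background-subtracted spot signals from Agilent Feature Extraction 10.5.1.1, with detrending and surrogate values for dim spots. The submitters' processing notes name version 9.1. Probe positions are in mm9, per the file headers. The authors' deposited value table was on a log2 scale: its columns correlated with log2 intensity at 0.997 to 1.00 across probes and shared 1 distribution (median 6.30), and the sources used here do not give its method.

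Here log2 intensity minus each array's 75th percentile was taken after control and outlier spots were left out, and spots of a probe were averaged. A probe needed 50% or more of its spots marked by the software to count as above background. Where 1 of the arrays compared was dim, the difference is a bound against the lowest signal above background. Genes were named through RefSeq (GRCm38.p6) and represented by the probe of highest mean signal. Sequences are from RefSeq and the deposited files. Python 3.11.15, numpy 2.4.6, pandas 2.3.3, R 4.3.3 and limma 3.58.1 (normexp offset 50) were used. The differencing was tested on simulated data, in which the known changes were placed in bright probes only. Changes in dim probes and bounds were not tested.

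All 8 members are named with every probe. From each list the genes with the largest differences were eligible to be named, up to 4 per comparison, with bounds of 2-fold or more, and for each measured member the 2 nearest genes. A few genes that this rule takes are not reported here. Siglec15 and the marker genes named were picked for their role, with values seen. The members and the lists were chosen with earlier results of these data known. The alternatives were quantile normalization, normexp, the deposited value table, scaling on the median spot, other filters on dim probes, a 1.5-fold threshold and the median over probes.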

Additional observations from a re-analysis of the deposited data

How the results depend on the processing

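The members' counts at 2-fold rest on scaling in the comparisons with imDCs. Between maDCs and imDCs the count of genes higher, 2, became 1 on the median spot and 5 at 1.5-fold, and the count of genes lower, 0, became 1 under each. For probes the count higher, 2, became 1 and 6, and the count lower, 0, became 2 under each. Between sDCs and imDCs the count of genes higher, 0, became 1 in the authors' deposited values and 3 at 1.5-fold, and that of probes higher, 0, became 1 and 4. The other counts stayed within 1.5 times under the alternatives run, and no called difference of a member changed sign. Over all genes, those higher made up 66.8% of the calls between maDCs and imDCs, against 57.7% after quantile normalization, 56.4% in the deposited values, 43.2% on the median spot and 78.3% with no filter on dim probes. Between sDCs and imDCs the share was 61.2%, against 43.0% on the median spot. Between maDCs and imDCs 3049 genes were higher, against 6230 with no filter, and 1517 were lower, against 2716 on the median spot. Between sDCs and imDCs 3823 were higher, against 6178 with no filter. Between the antibody-treated sDCs and sDCs 124 genes were higher and 182 lower, against 44 and 44 after normexp, 309 and 587 with no filter, and 47 and 66 among genes above background on all 4 arrays. The cause of these shifts was not tested. The slide as a block was not run, and no paired analysis was possible because each population had 1 array. Signal over background limits Calcr, which has no value.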

Other observations

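Of 8 neutrophil genes, 5 were at least 2-fold higher in the antibody-treated sDCs than in sDCs (3 after normexp), Ltf by 1.81 and Ngp by 1.71, while Mpo was at 0.96, Mmp8 at 0.35 and S100a8 at 0.28. Their summed scaled intensity was 257403 in the antibody-treated sDCs and 146243 in sDCs, against 89917 in maDCs and 1153010 in imDCs. Among 4 heat shock genes, Hspa1a was higher by 4.26 in sDCs and by 4.67 in maDCs than in imDCs. Hspa1b, a near-identical copy, was higher by 3.37 and 3.64, and by 0.99 and 2.06 by its other probe. Whether the probes tell the copies apart was not tested. Dnajb1 was at 0.08 and 0.21 and Hsph1 at -0.87 and 0.30 in the same comparisons. These values have no replicate.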
